A study of Mus musculus with 9 samples.

Results

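Egr1, Egr2, Egr3, Klf2, Klf4, Klf6, Klf10, Nr4a1, Nr4a2 and Ier2 are immediate early genes, most of them coding for transcription factors, and were compared here between myeloid progenitors with and without a NUP98-HOXA10hd fusion. They were taken by gene symbol after matching the Ensembl identifiers of the expression table, and all 10 were found among its 37980 genes. Of these, 8 passed the filter on low values (a value of at least 10 in at least 4 samples) and were tested together with 11987 genes in all, while Egr2 and Egr3 were too low.

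RNA was sequenced from 9 samples of mouse bone marrow myeloid progenitors (MPs, lineage-negative, c-kit-positive and Sca1-negative cells), each of 100000 sorted cells. The 4 NA MP samples were Tdtomato+ donor-derived cells from recipients of multipotent progenitors that carried Nup98-Hoxa10hd, expressed from a Rosa26 allele with a loxP-flanked stop after Vav-Cre recombination, which acts in blood cells. The 5 WT MP samples were CD45.2+ cells from recipients of wild-type multipotent progenitors. All mice were on the C57BL/6 background and the recipients were irradiated adults that also received helper or competitor marrow. The cells were taken 3 months after transplantation according to the sample labels, and the study's methods give a later month. Elsewhere the study marks donor WT cells by CD45.1, not CD45.2, and it does not say which cells the CD45.2+ sort took, so the source of WT MPs (donor, helper marrow or recipient) is not settled here. Neither source states that a sample was a single mouse, so p-values measure the spread between these samples.

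The deposited values were gene counts already divided by a size factor for each sample. They are called normalised counts below. In each sample between 97.4% and 97.7% of the values below 200 were whole multiples of the value of 1 read, within a tolerance of 0.02 reads. Dividing by that value recovered the depth, which was 5557718, 6600722, 6048377 and 8106141 reads in NA MP replicates 1 to 4 and 6141707, 7751469, 6509422, 6636191 and 7086155 reads in WT MP replicates 1 to 5. At these depths 3 reads corresponded to a normalised count between 2.48 and 3.60, a floor that covers counting error only. As a check of the labels, Hoxa10, a partner of the fusion, had normalised counts of 154.9, 124.4, 120.2 and 115.7 in NA MPs and between 5.59 and 11.98 in WT MPs. Nup98, the other partner, lay between 839.2 and 1025 in NA MPs and between 566.5 and 627.6 in WT MPs. Mpo and the other markers of the sorted cells were found in every sample, and Ly6a, which codes for the Sca1 antigen excluded by the sort, stayed between 12.2 and 23.1 normalised counts.

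Immediate early genes are transcribed within minutes of a stimulus from factors already present in the cell, without new protein synthesis. Growth factor and stress signals reach them through the ERK and p38 kinases, serum response factor with its ternary complex partners, and CREB. Egr1 restrains the proliferation of haematopoietic stem cells and favours macrophage differentiation, Klf4 acts in monocyte formation, Klf2 in the quiescence and trafficking of lymphocytes, and Nr4a1 in the survival of patrolling monocytes and the quiescence of stem cells.

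The 250 bases upstream of the transcription start are shown for members that have an entry in the RefSeq table (build GRCm38.p6). Whether the sites in them bear on how the members varied among replicates was not tested. Entries were found for 6 of the 10, Egr2, Klf2, Klf4, Klf6, Nr4a1 and Nr4a2, and none for Egr1, Egr3, Klf10 and Ier2. Capitals mark the CRE core TGACG, on either strand, and the CArG box, the binding sequence of serum response factor. The sequences run 5′ to 3′ in the direction of transcription.
Egr2 (chr10:67537619-67537868, plus strand): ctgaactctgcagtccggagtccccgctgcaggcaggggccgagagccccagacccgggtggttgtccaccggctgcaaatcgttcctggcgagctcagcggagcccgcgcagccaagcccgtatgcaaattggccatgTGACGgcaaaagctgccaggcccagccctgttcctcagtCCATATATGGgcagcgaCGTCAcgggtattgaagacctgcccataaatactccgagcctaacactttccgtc
Klf2 (chr8:72318812-72319061, plus strand): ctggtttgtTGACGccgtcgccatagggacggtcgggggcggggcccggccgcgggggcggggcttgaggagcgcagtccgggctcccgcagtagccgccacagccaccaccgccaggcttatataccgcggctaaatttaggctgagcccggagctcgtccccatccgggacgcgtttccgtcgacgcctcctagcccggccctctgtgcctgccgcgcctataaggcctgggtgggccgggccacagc
Klf4 (chr4:55532476-55532725, minus strand): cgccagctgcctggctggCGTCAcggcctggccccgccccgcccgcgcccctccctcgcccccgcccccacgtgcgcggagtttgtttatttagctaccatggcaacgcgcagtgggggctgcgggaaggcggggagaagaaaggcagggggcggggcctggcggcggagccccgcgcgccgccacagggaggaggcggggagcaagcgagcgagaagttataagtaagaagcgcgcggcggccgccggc
Klf6 (chr13:5861239-5861488, plus strand): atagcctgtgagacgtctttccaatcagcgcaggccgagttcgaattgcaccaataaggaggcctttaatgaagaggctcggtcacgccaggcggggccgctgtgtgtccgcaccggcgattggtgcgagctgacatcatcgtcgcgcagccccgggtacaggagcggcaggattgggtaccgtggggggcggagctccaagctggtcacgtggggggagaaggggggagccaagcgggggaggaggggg
Nr4a1 (chr15:101266596-101266845, plus strand): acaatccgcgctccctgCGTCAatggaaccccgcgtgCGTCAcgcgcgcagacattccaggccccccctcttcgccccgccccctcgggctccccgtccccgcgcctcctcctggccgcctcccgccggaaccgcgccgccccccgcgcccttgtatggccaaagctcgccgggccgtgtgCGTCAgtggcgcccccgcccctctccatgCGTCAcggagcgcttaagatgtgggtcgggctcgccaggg
Nr4a2 (chr2:57124004-57124253, minus strand): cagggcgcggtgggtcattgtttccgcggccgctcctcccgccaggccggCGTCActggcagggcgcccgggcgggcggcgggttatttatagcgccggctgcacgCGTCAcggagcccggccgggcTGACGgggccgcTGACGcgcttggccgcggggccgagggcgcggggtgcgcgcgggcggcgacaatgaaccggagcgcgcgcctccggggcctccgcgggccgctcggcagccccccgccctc
The last 29 bases of the Klf2 window and the last 7 of the Klf6 window lie in the first exon of the GENCODE annotation. Egr2 had 5 windows in the table, of which the 1 closest to an annotated start is shown. The Egr2 and Nr4a1 windows lie downstream of another annotated start of the same gene, and so are upstream of only some of its transcripts.

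The CRE core was found in 5 of the 6 windows, all but Klf6, against 17.7% of 32817 windows of the same length. There were 4 matches each in Nr4a1 and Nr4a2, 2 in Egr2 and 1 each in Klf2 and Klf4. The CArG box matched only in Egr2, at position -72, and was present in 1.47% of all windows. The EGR site GCGNGGGCG, which can overlap the GC box GGGCGG, was found in 4 windows (Klf2, Klf4, Nr4a1 and Nr4a2; 4.70% of all windows), and the GC box itself in 5 (32.7% of all windows). No window held the full CRE TGACGTCA (1.55% of all windows), the AP-1 site TGANTCA (6.75%) or the NBRE AAAGGTCA bound by Nr4a proteins (1.34%), and TATAAA was present in Nr4a2 alone (12.4%). Both strands were searched. The 6 windows had a GC content between 61.6% and 80.0%, above the median of 52.4% of all windows, and motifs rich in G and C match more often in such sequence.

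Of the 8 tested members, 5 were higher in NA MPs past an adjusted p of 0.05 in limma (Klf2, Egr1, Nr4a1, Klf6 and Ier2), none was lower, and Klf4, Nr4a2 and Klf10 did not pass. Among all 11987 tested genes, 16.9% were higher and 17.3% were lower past the same threshold. All 5 rises exceeded 2-fold, as did 2.56% of all tested genes, and in all 5 every NA MP sample lay above every WT MP sample, as in 13.5% of all tested genes. The median log2 fold change was 1.83 over the 8 tested members and -0.01 over all tested genes. In a bulk sample, a change in the share of cells that express a gene and a change in RNA per cell cannot be told apart.

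**Figure D1:**
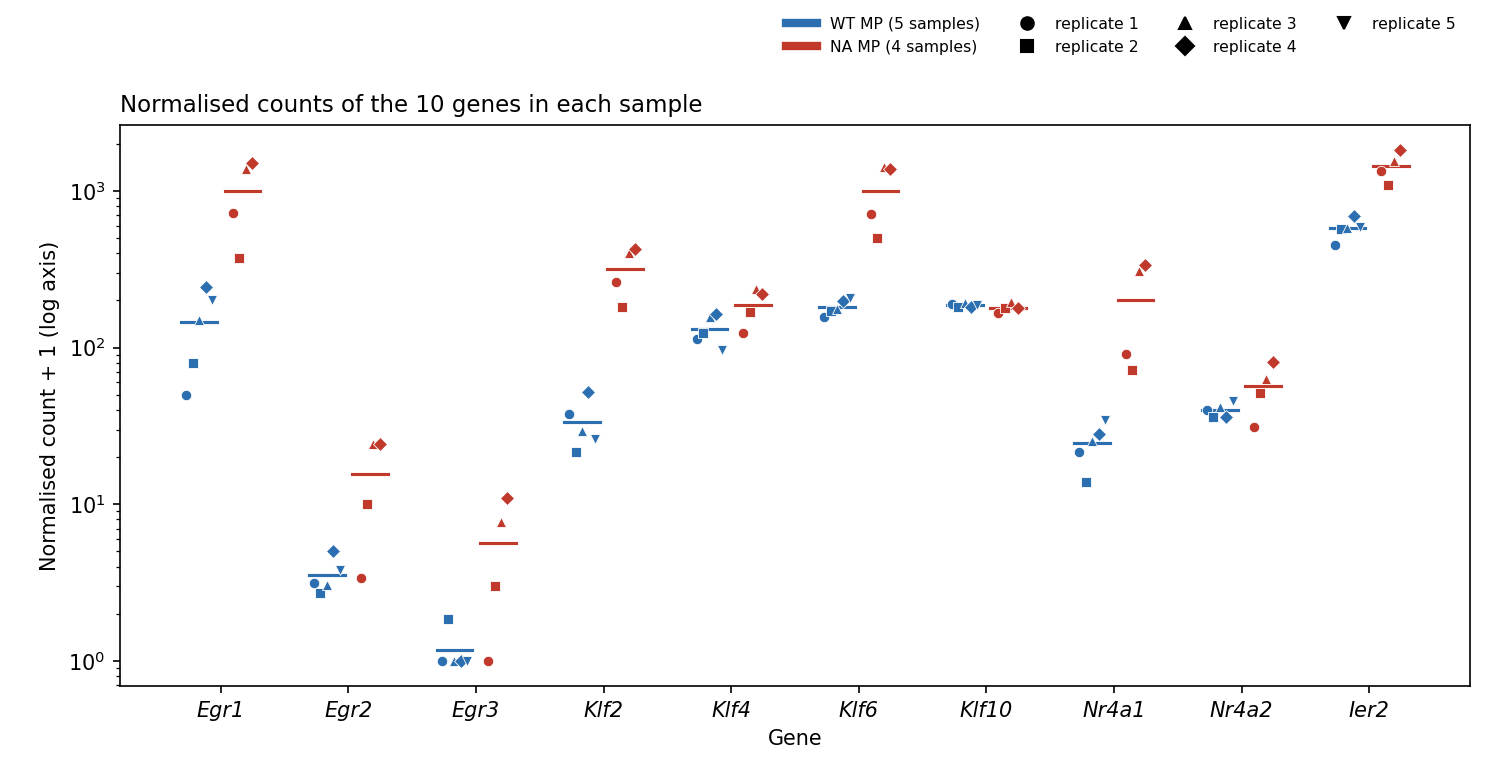
Normalised count plus 1 (log axis) of the 10 genes in each of 5 WT MP samples (blue) and 4 NA MP samples (red), with 1 symbol per replicate and a line at the group mean. All NA MP samples lie above all WT MP samples for Egr1, Klf2, Klf6, Nr4a1 and Ier2, and triangles and diamonds (replicates 3 and 4) sit at the top of most red groups.

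Egr1, a zinc finger activator and the best known reporter of ERK signalling, had normalised counts of 721.5, 370, 1380 and 1502 in NA MP replicates 1 to 4, and of 48.6, 78.7, 149.8, 242.1 and 199.4 in WT MP replicates 1 to 5. The groups did not overlap, replicates 3 and 4 were the high NA MP samples, and the lowest NA MP sample was only 1.53-fold above the highest WT MP sample. In limma the log2 fold change was 2.80, with a standard error (SE) of 0.626 and an adjusted p of 0.0109. The variation within each group was large, with a 4.06-fold range in NA MPs and a 4.99-fold range in WT MPs.

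Egr2, which acts with Egr1 in macrophage and lymphocyte differentiation, was below the filter, with 2, 9, 21 and 28 recovered reads in NA MPs and 2, 2, 2, 4 and 3 in WT MPs. NA MP replicate 1 lay within the WT MP range and the other NA MP samples above it. Over the groups this made 60 reads against 13, a depth-corrected ratio of 6.05 (exact 95% interval 3.28 to 12, counting error only). Egr3, a related factor of activated lymphocytes, had 0, 2, 6 and 12 reads in NA MPs and a single read in WT MPs, in replicate 2. NA MP replicate 1 had none, as in most WT MPs. The ratio was 26.2 (exact 95% interval 4.19 to 1090, counting error only). In the exact two-sided permutation test over the 126 ways to choose 4 of 9 samples, p was 0.0476 for Egr2 and 0.0952 for Egr3, and the smallest p possible is 0.0159.

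Klf2, a zinc finger factor of the Krüppel-like family, had normalised counts of 260.5, 180, 401.9 and 425.7 in NA MPs and of 36.7, 20.5, 28.5, 51.0 and 25.2 in WT MPs. The groups were the most widely separated of the members, with the lowest NA MP sample 3.53-fold above the highest WT MP sample. The difference was 9.44-fold (log2 fold change 3.24, SE 0.351; limma, adjusted p = 0.000235).

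Klf6, a Krüppel-like factor also expressed in many non-blood tissues, had normalised counts of 708.3, 499.5, 1417 and 1382 in NA MPs and of 155.4, 170.3, 175.2, 196.1 and 206.9 in WT MPs. WT MPs were close together, and NA MP replicates 3 and 4 were far above replicates 1 and 2, all of them above WT MPs. Klf6 thus rose 5.05-fold (log2 fold change 2.34, SE 0.33; limma, adjusted p = 0.00108).

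Klf4, which promotes monocyte differentiation, had normalised counts of 123.6, 166.8, 234.9 and 218.2 in NA MPs and of 113.3, 122.4, 155.9, 163.1 and 96.0 in WT MPs. NA MP replicate 1 lay within the WT MP range and the other NA MP samples above it. Klf4 did not pass (log2 fold change 0.50, SE 0.24; limma, adjusted p = 0.163). With NA MP replicates 1 to 4 left out in turn it was 0.68, 0.53, 0.37 and 0.40 (limma, adjusted p = 0.0438, 0.217, 0.331 and 0.315), and it passed only without replicate 1.

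Klf10, a Krüppel-like factor induced by TGF-beta, had normalised counts of 164.5, 179, 193.7 and 178.5 in NA MPs and of 189.9, 179.7, 191.5, 180.1 and 185.4 in WT MPs. The groups overlapped in range, with NA MP replicates 1, 2 and 4 just below every WT MP sample and replicate 3 above them all. Its log2 fold change was the smallest in size among the tested members (-0.05, SE 0.073; limma, adjusted p = 0.625).

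Nr4a1, an orphan nuclear receptor whose activity is set mainly by its abundance, had normalised counts of 90.0, 70.8, 307.3 and 337.2 in NA MPs and of 20.5, 12.8, 24.4, 27.0 and 33.5 in WT MPs. NA MP replicates 3 and 4 stood apart from replicates 1 and 2, and even the lower pair was above every WT MP sample. The rise was 6.84-fold (log2 fold change 2.78, SE 0.561; limma, adjusted p = 0.00672).

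Nr4a2, a receptor of the same family, had normalised counts of 30.01, 50.6, 62.4 and 79.4 in NA MPs and of 38.8, 35.1, 40.8, 35.0 and 44.7 in WT MPs. NA MP replicate 1 was the lowest of all samples and the other NA MP samples were the highest. Nr4a2 did not pass (log2 fold change 0.43, SE 0.193; limma, adjusted p = 0.0934). When NA MP replicates 1 to 4 were left out in turn, its log2 fold change was 0.69, 0.44, 0.35 and 0.23 (limma, adjusted p = 0.000514, 0.143, 0.237 and 0.361), so that it passed only without replicate 1.

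Ier2, a small nuclear protein gene that is induced by most growth factors, had normalised counts of 1348, 1090, 1559 and 1817 in NA MPs and of 451.1, 574.1, 579.7, 695.4 and 590.8 in WT MPs. The groups did not overlap, and the gap between them was 1.57-fold. Ier2 rose 2.49-fold (log2 fold change 1.32, SE 0.175; limma, adjusted p = 0.000775).

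Levels were compared between members per kilobase of annotated exon. Ier2 had the highest level in both groups, at 955 ± 203 normalised counts per kb in the 4 NA MP samples and 380 ± 57.0 in the 5 WT MP samples (mean ± SD), and no other member reached its range. In NA MPs, Klf6 (228), Egr1 (222) and Klf2 (172) followed and overlapped as neighbours in that order, then Klf4 (61.0), Nr4a1 (57.4) and Klf10 (42.8), which overlapped in turn, with Nr4a2 (13.7), Egr2 (4.27) and Egr3 (1.06) at the bottom, in mean normalised counts per kb. In WT MPs, Klf10 (44.3), Klf4 (42.7), Klf6 (41.2), Egr1 (32.1) and Klf2 (17.5) followed Ier2 with overlap between neighbours, ahead of Nr4a2 (9.58), Nr4a1 (6.75), Egr2 (0.748) and Egr3 (0.0388) in the same unit. No member's exons overlapped another gene in the annotation.

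The members varied together among NA MPs. Replicates 3 and 4 were the 2 highest NA MP samples for 7 of the 8 tested members, all but Klf10, and also for Egr2 and Egr3. The same pair was highest in 16.5% of all tested genes. The lowest NA MP sample was replicate 2 for 5 tested members (Egr1, Klf2, Klf6, Nr4a1 and Ier2) and replicate 1 for 3 (Klf4, Klf10 and Nr4a2). On the log2 scale, the mean deviation of the 8 tested members from the NA MP mean was -0.40 and -0.57 in replicates 1 and 2, and 0.44 and 0.52 in replicates 3 and 4.

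**Figure D2:**
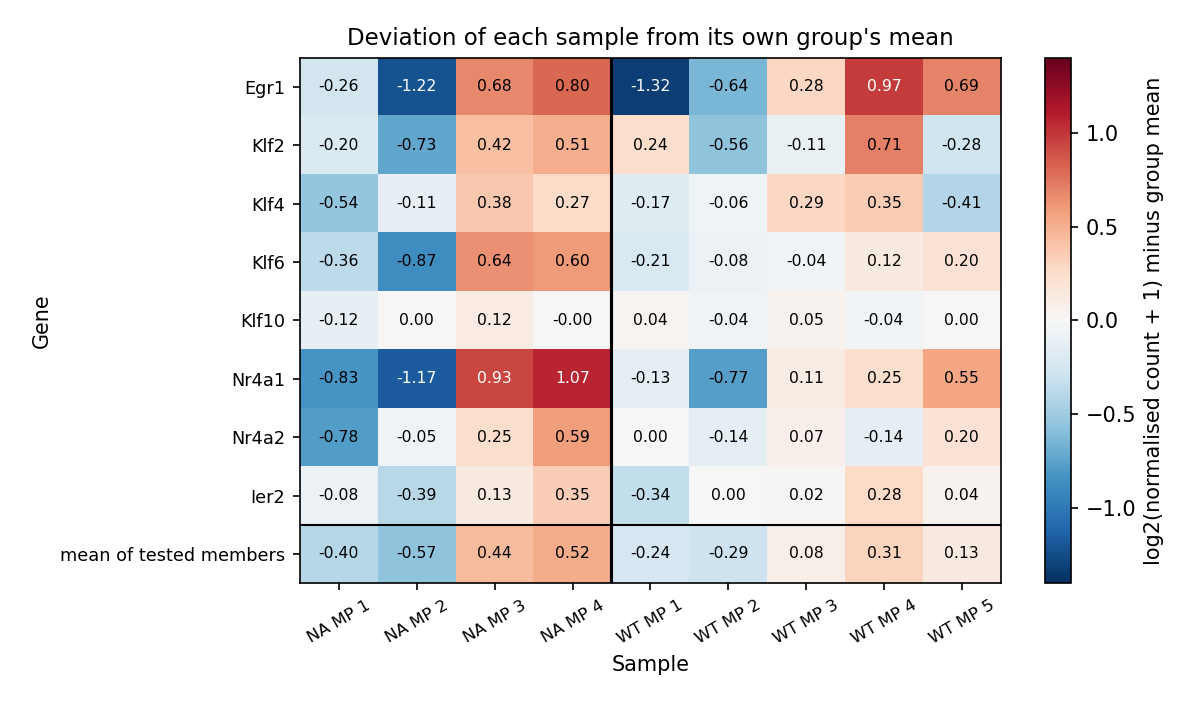
Deviation of each sample from the mean of its own group on the scale of log2(normalised count + 1), for the 8 tested members and their mean, with NA MP samples left of the black line. NA MP replicates 3 and 4 are positive for 7 members, and Klf10 stays close to 0 in every sample.

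Among WT MPs the mean deviations of the members were smaller in size, and the difference between groups was not tested. Replicates 4 and 5 were the 2 highest WT MP samples for Egr1, Klf6, Nr4a1 and Ier2, and not for the other tested members. Replicate 4 was highest for 4 of the 8 tested members and replicate 5 for 3, while replicates 1 and 2 were lowest for 3 each. The mean deviation was -0.24, -0.29, 0.08, 0.31 and 0.13 in replicates 1 to 5. In replicates 1 to 4 its sign was that of the NA MP replicate of the same number. Whether the numbers mark samples handled together was not tested. With 4 and 5 samples a correlation within a group was not tested.

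The spread within groups differed between members. In NA MPs the coefficient of variation was 69.7% for Nr4a1, 54.2% for Egr1, 46.7% for Klf6, 37.3% for Nr4a2, 36.9% for Klf2, 27.2% for Klf4, 21.3% for Ier2 and 6.68% for Klf10, where the median of all tested genes was 6.96%. Klf10 was thus the only tested member at the level of a typical gene, and Nr4a1 varied more than 99.8% of them. In WT MPs the values were 56.2% for Egr1, 37.0% for Klf2, 32.5% for Nr4a1, 21.9% for Klf4, 15.0% for Ier2, 11.4% for Klf6, 10.5% for Nr4a2 and 2.94% for Klf10, with a median of 6.38% over all tested genes. Egr1 and Klf2 varied alike in both groups, whereas Nr4a1, Klf6 and Nr4a2 varied less in WT MPs. Counting reads alone would give 3.15% for Klf6 in NA MPs and 7.32% in WT MPs. The spread of Nr4a2 in WT MPs was below the 15.8% expected from counting, as was that of Klf10 in NA MPs (7.54%) and in WT MPs (7.24%), so these values measure no evenness beyond counting.

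**Figure D3:**
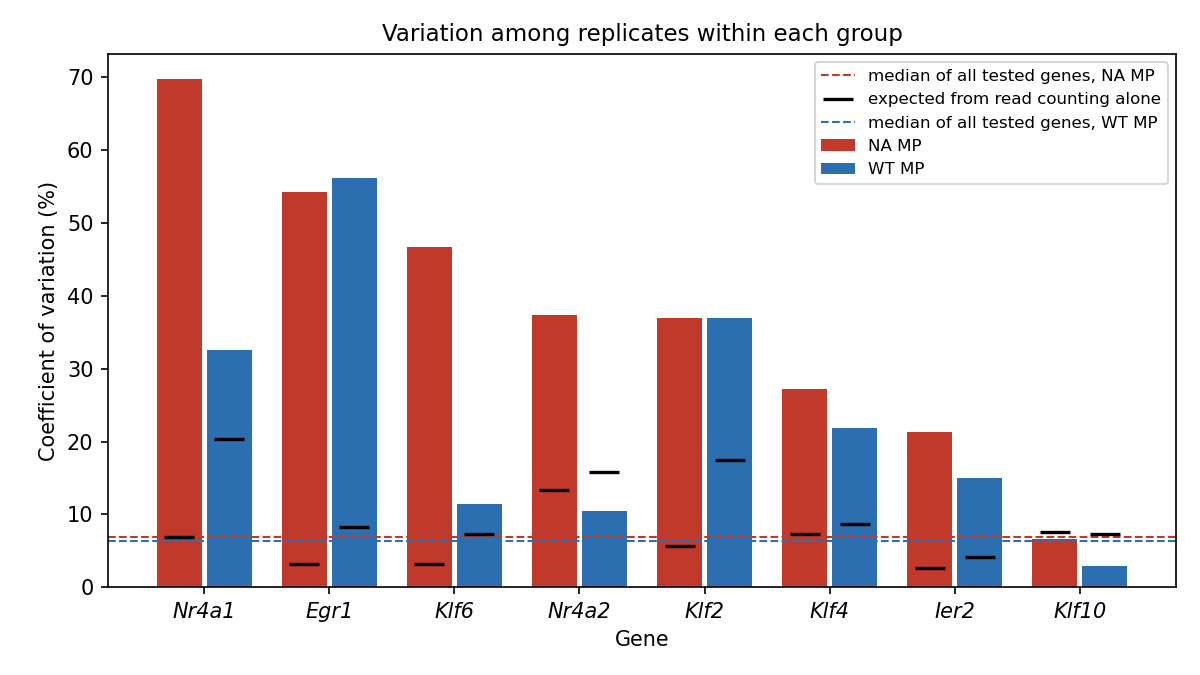
Coefficient of variation among replicates for the 8 tested members, in 4 NA MP samples (red bars) and 5 WT MP samples (blue bars), with dashed lines at the median of all tested genes and black marks at the value expected from read counting alone. Nr4a1 reaches 69.7% in NA MPs and Klf10 lies at 6.68%.

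Sample quality measures are given beside this pattern, and their part in it was not tested. The share of mitochondrial transcripts was 2.75%, 2.55%, 2.88% and 3.00% in NA MP replicates 1 to 4, so that replicates 3 and 4 had the higher shares, and 2.86%, 3.04%, 2.99%, 3.03% and 3.04% in WT MP replicates 1 to 5. The 10 most abundant genes took 6.29%, 6.29%, 6.43% and 6.42% of NA MP replicates 1 to 4, again higher in replicates 3 and 4, and between 6.23% and 6.32% of WT MPs. The depth of each sample is given above.

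The other Egr, Klf, Nr4a and Ier genes served as relatives that were not chosen as members. Of 18 listed, 11 were tested, of which 4 were higher, 3 were lower and 4 did not pass, and the median log2 fold change was 0.04. Among all tested genes, 16.9% were higher and 17.3% were lower. Ier3, an inhibitor of apoptosis induced by NF-kappaB, rose by 1.20 on the log2 scale (SE 0.273; limma, adjusted p = 0.0117), Ier5 by 0.76 (SE 0.109, adjusted p = 3.55e-06), Klf11 by 0.62 (SE 0.0701, adjusted p = 1.39e-09) and Klf8 by 0.35 (SE 0.123, adjusted p = 0.0226). Klf8 no longer passed in limma without NA MP replicate 2 (adjusted p = 0.0827) or without WT MP replicate 1 (adjusted p = 0.0557).

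Among the relatives that fell were Klf1, the master regulator of red cell genes, at -0.82 in log2 fold change (SE 0.0974; limma, adjusted p = 1.61e-05), Klf9 with -0.80 (SE 0.0895, adjusted p = 9.39e-10) and Klf3, a repressor that is itself a Klf1 target, with -0.58 (SE 0.0817, adjusted p = 1.82e-07). Klf5 (0.05), Klf16 (0.04), Klf13 (0.03) and Klf7 (-0.10) did not pass, in log2 fold change. Klf13 was the most counted relative, at 801.7 ± 56.3 in the 4 NA MP samples and 781.9 ± 23.1 in the 5 WT MP samples (mean ± SD). Of the untested relatives, Ier5l had between 8.91 and 18.0 normalised counts in NA MPs and between 5.003 and 8.63 in WT MPs. Egr4, Klf12, Klf15 and Nr4a3 did not exceed 2.48 in any sample, and Klf14 and Klf17 had none.

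**Figure D4:**
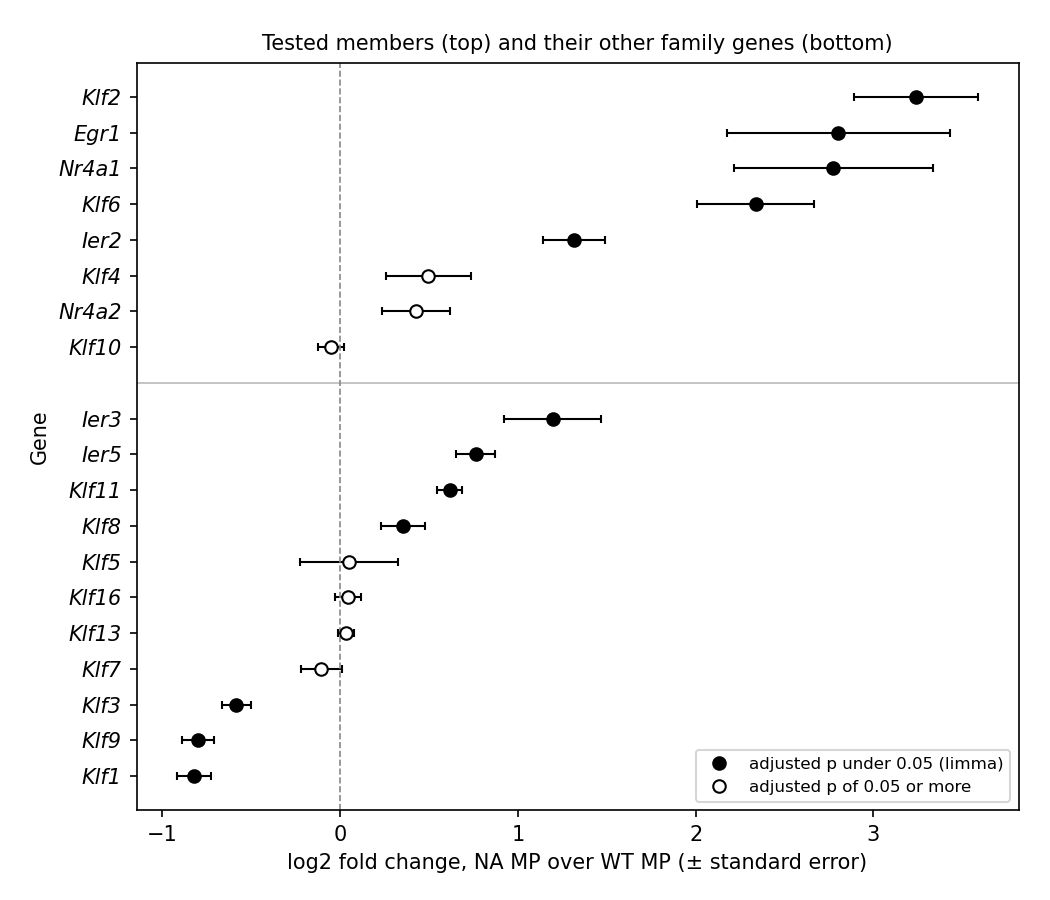
Log2 fold change of NA MPs over WT MPs with its standard error from limma, for the 8 tested members (top) and 11 tested relatives (bottom). Filled points passed an adjusted p of 0.05, and the relatives lie on both sides of 0, from Ier3 at 1.20 to Klf1 at -0.82.

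Other immediate early genes mostly moved in the same direction as the members. Of 47 listed, 39 were tested, 31 were higher, Myc alone was lower and 7 did not pass, and the median log2 fold change was 0.88. For comparison, 16.9% of all tested genes were higher and 17.3% were lower. These values include Plk2 and Socs3, which passed the filter through NA MPs alone. Socs3 had between 4.32 and 10.25 normalised counts in WT MPs. With at least 10 required in every sample, which leaves both out, 28 of 35 tested genes were higher. Fosb, a subunit of AP-1, had normalised counts of 1312, 913, 2647 and 2965 in NA MPs and between 51.8 and 142.6 in WT MPs, and rose by 4.21 on the log2 scale (SE 0.463; limma, adjusted p = 0.000256). The high samples were again replicates 3 and 4. Dusp1, a phosphatase that switches off MAP kinases, rose by 2.91 (SE 0.391, adjusted p = 0.000816), while Plk2, a kinase of the cell cycle, passed the filter through NA MPs alone, with 12, 11.1, 52.3 and 33.9 normalised counts there and at most 2.04, under the floor of 3 reads, in WT MPs. Zfp36l2, an RNA-binding protein gene and the most counted of the list, rose by only 0.40 (SE 0.026, adjusted p = 1.85e-16).

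NA MP replicates 3 and 4 were the highest NA MP samples for 32 of these 39 genes, and for 16.5% of all tested genes. Zfp36l2 was an exception, with 6852 normalised counts in replicate 1 and between 6226 and 6623 in the others. The median coefficient of variation of the 39 genes was 23.7% in NA MPs and 13.2% in WT MPs.

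Counts of genes upstream of the members are to be read beside the 16.9% of all tested genes that were higher and the 17.3% that were lower. Of the 15 factors that induce immediate early genes, all tested, 4 were higher and 1 (Creb1) was lower. The median log2 fold change was 0.07, and Srf did not pass. Mef2c (0.32), Crtc3 (0.29) and Mrtfa (0.16) had the largest log2 fold changes, and Mef2d was the most counted. Of 18 genes of the ERK cascade, 3 were higher and 3 lower, with a median of -0.04; Sos1 fell by 0.31 on the log2 scale, Grb2 rose by 0.18, Hras fell by 0.17 and Rps6ka1, the most counted, rose by 0.12. These are RNA levels and carry no measure of kinase activity.

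Of 14 cofactors of Egr, Klf and Nr4a proteins, 1 was higher and 4 were lower, and the median log2 fold change was -0.02. Rxra, the dimer partner of Nr4a1 and Nr4a2, rose by 0.42 (SE 0.135; limma, adjusted p = 0.0137), Wwp1, a ubiquitin ligase, fell by 0.23, and the corepressor Ncor1 fell by 0.14 on the log2 scale. Nab2, a corepressor and target of Egr1, had a log2 fold change of 0.21 that did not pass (adjusted p = 0.372 from limma).

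Of 14 genes reported as targets of the members, 13 were tested, 8 were higher and none was lower, and the median log2 fold change was 0.39. Id3 passed the filter through NA MPs alone, with 10.8, 25.3, 31.2 and 21.5 normalised counts there and at most 4.32 in WT MPs, so its fold is not given. Cdkn1a, the p21 cell cycle inhibitor, rose by 1.01 on the log2 scale (SE 0.142; limma, adjusted p = 6.72e-07), and S1pr1, a Klf2 target in lymphocyte egress, by 0.70 (SE 0.153, adjusted p = 0.000332). Tgfb1, the most counted, rose by 0.31.

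The largest likeness to the members was sought among tested genes outside the lists, by the Pearson correlation over 9 samples of deviations from group means with the mean deviation of the members, as a description only. Snx12 (0.987), Lair1 (0.972), Fbxo22 (0.967), Sept11 (0.956), Osm (0.953) and Thoc1 (0.944) had the highest values. Of these, Osm, a cytokine gene, rose past the threshold (log2 fold change 1.34, SE 0.324; limma, adjusted p = 0.0156), while Snx12 (-0.21, adjusted p = 0.00548) and Thoc1 (-0.14, adjusted p = 0.0478) fell. The deviations of Osm had an SD of 0.459 against 0.388 for the members' mean. The others had SDs between 0.0266 and 0.0958.

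Markers of stress and of other cell types were read in the same samples, and their part in the members' levels was not tested. Of 14 heat shock genes, 12 were tested, Dnajb1 and Dnajb4 were higher and 6 genes were lower. Hspa1b passed the filter through NA MPs alone, with 13.2 to 21.2 normalised counts there and 1.02 to 7.55 in WT MPs. Its call is therefore not counted as a rise. The median log2 fold change, Hspa1b included, was -0.06. Dnajb4 rose by 0.41 and Hsph1 fell by 0.58 on the log2 scale, and the most counted, Hsp90ab1, had a log2 fold change of 0.03 that did not pass (adjusted p = 0.208 from limma). The summed normalised counts of the list were 57190, 54990, 57250 and 56310 in NA MPs and lay between 58280 and 59100 in WT MPs.

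Of 7 B lineage genes, 6 were tested. Apart from Ebf1 and Pax5, all tested genes of the list were higher. Among them were Cd79a (3.45) and the most counted, Cd79b (0.75), in log2 fold change. Ebf1 and Pax5 passed the filter through NA MPs alone, with at most 16.0 and 4.28 normalised counts in WT MPs. Their folds are not given and their calls are not counted as rises. The summed normalised counts of the list were 662.6, 1183, 1169 and 854.7 in NA MPs and between 206.5 and 230.3 in WT MPs. All 4 mast cell and basophil genes were higher, with log2 fold changes of 1.38 for Fcer1a, 1.37 for Ms4a2 and 0.92 for Cpa3, the most counted, and sums of 2714, 2393, 2380 and 2261 in NA MPs against 1206 to 1264 in WT MPs.

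Of 8 monocyte and macrophage genes, 6 were tested, 4 were higher and 2 lower, with C1qa at 2.34, Cd14 at 0.93, Ccr2 at -0.59 and Ly6c2, the most counted, at 0.23 in log2 fold change. Their sums were 5816, 6543, 6647 and 6367 in NA MPs and between 5331 and 5998 in WT MPs. Of 6 erythroid genes, 5 were tested and 4 were lower, with Epor at -0.99 and Car1, the most counted, at -0.72, and sums of 2103, 1661, 1798 and 2123 in NA MPs against 3058 to 3423 in WT MPs.

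Of 5 T and NK cell genes only Nkg7 was tested, at 0.16, and of the T cell genes Cd3e, Cd3g and Trac were at 0 in every sample, while Cd3d had 2 reads in NA MP replicate 2 and 1 read each in WT MP replicates 2 and 3. The list's sums, almost all Nkg7, lay between 1888 and 2032 in NA MPs and between 1663 and 1809 in WT MPs. Of 4 megakaryocyte genes, Itga2b, the most counted, was higher (0.19), and Gp1bb (-0.45), Pf4 (-0.20) and Gp9 did not pass, with sums between 1211 and 1433 in NA MPs and between 1094 and 1243 in WT MPs. None of 5 endothelial and stromal genes passed the filter, and their sums did not exceed 22.2 in any sample. Of 6 markers of the sorted myeloid progenitors, Cd34 was higher (0.12), Fcgr3 lower (-0.57) and the others, with Csf1r at 0.07 and the most counted, Mpo, at 0.05, did not pass, in log2 fold change.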

How the data were processed

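The authors named mm10, RSEM and DESeq2 for alignment, gene counts and normalisation. The deposited signal per gene, although named as raw, was these counts divided by a size factor for each sample, found by the authors' values being whole multiples of the value of 1 read. The size factors, 0.833 to 1.21, were close to median-of-ratios factors recomputed from the recovered reads. A count model on rounded expected counts had been planned; because the values were already scaled, log2(normalised count + 1) was tested with limma 3.58.1 in R 4.3.3 (robust, with mean-variance trend, Benjamini-Hochberg adjustment over 11987 genes), without further scaling. This change, and the pseudocounts tried, were chosen after the data were seen. The planned count tests had by then been run on the scaled values, where Nr4a2 also passed in the main one; they are not used here. None was run on the recovered reads. The test was also run on simulated data, and the outcome is not given here. Members and lists were chosen with earlier results of these data known. Named genes were the members, their relatives, up to 3 of the largest changes and the most counted gene of most lists, and the 6 genes of highest likeness; a few others were named after their values were seen. Symbols were matched for 32916 of 37980 identifiers. Positions are from GENCODE M21 and RefSeq.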

Additional observations from a re-analysis of the deposited data

Results flagged for a closer look

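In 88 groups of 4 or 5 samples (the members, their relatives, list sums and the mitochondrial share), 5 had a sample far from the others of its group, where chance gives about 4.4. WT MP replicate 2 had 0.8556 normalised counts of Egr3, which is 1 read, with none in the other WT MPs. Klf15 likewise had a single read, in NA MP replicate 2 (1.011 normalised counts) and in WT MP replicate 1 (1.079). Ly6a was 17.19 in NA MP replicate 2 and between 22.27 and 23.14 in the other NA MPs. The mitochondrial share was 2.86% in WT MP replicate 1 and between 2.99% and 3.04% in the other WT MPs.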

How the results depend on the processing

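The 5 members that passed kept their direction under all alternatives. Tested against a 2-fold change, 1 member (Klf2) passed in place of 5, as did 189 genes in all in place of 4107, 3 other immediate early genes in place of 31 and 0 relatives in place of 7; the stricter hypothesis sets these smaller numbers. Without a replicate, between 5 and 7 members, 3625 and 3937 genes in all, 28 and 34 other immediate early genes and 6 and 7 relatives passed. At an adjusted p of 0.01, 4 members passed, and Egr1 was lost (0.0109). With the replicate block 7 members passed, with Klf4 and Nr4a2 added, as did 3693 genes in all. Over all 11987 tested genes, same-numbered samples did not deviate together (correlations 0.0062, 0.0031, -0.02 and 0.057). The members' mean deviations did have the same sign in same-numbered NA MP and WT MP samples. Whether the numbers pair the samples was not tested. Without the filter, Egr2 and Egr3 passed (adjusted p = 0.00118 and 0.00441 from limma), and 7 of 10 members did. Klf4 also passed without the robust option (adjusted p = 0.0118). Scaling by total or by recomputed size factors left 5 members past the threshold, 5 without overlap and 7 with NA MP replicates 3 and 4 highest. Pseudocounts of 0.5 and 5, and leaving out the mean trend, were added after the data were seen and left 5 members past the threshold. The planned DESeq2, limma-voom and unrounded counts were run only on the scaled values, before the scaling was found, and are not reported as results. Those fits were not kept, and what they called is disclosed without being used as support. The same 5 members passed in each, with Egr2 and Egr3 added by DESeq2, Klf4 by limma-voom and Nr4a2 by unrounded counts. No count test was made on the recovered reads. Few reads limit Egr2 and Egr3.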
